A study of Mus musculus with 4 samples.

Results

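Tuft-2 cells are 1 of 3 tuft subtypes named in the authors' deposited annotation of pancreas cells that had arisen during repeated caerulein injury. Their members were taken from that annotation by name alone, with no expression threshold. This gave 457 cells among the 2586 cells of the deposited table of tuft and enteroendocrine cells, among 13362 cells with a deposited cell type and among 21140 cells in all. The comparison subtypes were Tuft-1 (210 cells) and Tuft-3 (494 cells). A further 119 of 1280 cells typed as Tuft carried no tuft subtype and entered only as a denominator. All cells came from mice of genotype Ptf1aCre-ERTM;ROSAYFP/+ that had been backcrossed into CD-1. In these mice tamoxifen switches on EYFP in cells that use the acinar gene Ptf1a, so EYFP marks cells of acinar origin within the limits of that driver. Every mouse received tamoxifen (5 mg/day, 5 days a week for 2 weeks), was 10 weeks old when injury began, and received caerulein, a secretagogue peptide that causes pancreatitis, 2 times a day on 5 days a week with 2 days of recovery. One group was injured for 2 weeks (2 mice) and the other for 4 weeks (2 mice), and EYFP+ cells were sorted from each mouse and sequenced with 10x Genomics 3′ chemistry. Uninjured mice were not analysed here, so all statements on time compare longer with shorter injury.

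Tuft cells are rare chemosensory cells of hollow organs that carry a tuft of long microvilli. They depend on the transcription factor Pou2f3, sense luminal compounds through a taste-type cascade that opens the cation channel Trpm5, and answer with eicosanoids, acetylcholine and the cytokine Il25. The normal mouse pancreas holds very few of them, and they are known to appear in acinar-derived metaplasia after injury.

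The 4 mice gave 33, 269, 56 and 99 Tuft-2 cells. Values for 4 mice are given throughout in the order 2-week mouse 1, 2-week mouse 2, 4-week mouse 1 and 4-week mouse 2, and values for Tuft-1 are those of 2-week mouse 2 (166 cells) and 4-week mouse 2 (26 cells), the 2 mice with at least 20 Tuft-1 cells. Median depth was 20201, 20965, 16331 and 17838 UMIs per Tuft-2 cell, so it was lower in both 4-week mice. Over all mice the median was 19939 UMIs in Tuft-2, 17627 in Tuft-1 and 17174 in Tuft-3 cells. EYFP stood at 556, 512, 585 and 576 CPM (counts scaled by the summed UMIs of a mouse and subtype), and each of the 457 cells held at least 1 EYFP UMI. All 457 were in the deposited clustering of EYFP+ cells described below, so this may only restate how cells were selected. No Tuft-2 barcode occurred in the Tuft-2 cells of another library, and 3 occurred in another library of the full table. Doublets were not called. In 6 of 457 Tuft-2 cells, a count made after the values were seen, hormones reached 100 UMIs or macrophage, endothelial or lymphocyte markers reached 20 UMIs. Their median depth was 33437 UMIs against 19899 in the other 451 cells. Without these cells and the 1 Tuft-1 and 7 Tuft-3 cells past the same limits, 7 genes in place of 6 were at least 2-fold higher and 29 in place of 30 lower than Tuft-3 (27 of the 30 shared), and 163 in place of 161 higher and 49 in place of 51 lower than Tuft-1, by the fold rule given below.

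The markers that define a tuft cell were present in Tuft-2 in all 4 mice. Levels are CPM, and subtypes were compared within each mouse as log2 ratios of CPM plus 10, given as mean ± SD over mice. No p-value is given between subtypes, since the subtype labels come from clusters of these same cells. Pou2f3, the master regulator of the lineage, stood at 214, 241, 233 and 226 CPM in Tuft-2 cells, 208 and 195 in Tuft-1 cells and 242, 232, 208 and 198 in Tuft-3 cells. Its levels overlapped between Tuft-2 and Tuft-3 and lay slightly below Tuft-2 in both mice with Tuft-1. Dclk1, a microtubule-associated kinase used as a tuft marker, stood at 1445, 1665, 1569.7 and 1395 CPM in Tuft-2 cells, 637 and 456 in Tuft-1 cells and 1708, 1618, 2042 and 1813 in Tuft-3 cells. Tuft-2 thus lay close to Tuft-3 for Dclk1 (log2 ratio -0.24 ± 0.20, n = 4) and well above Tuft-1 (1.48 ± 0.16, n = 2). Trpm5 stood at 512, 439.7, 553 and 506 CPM in Tuft-2 cells, 241 and 223 in Tuft-1 cells and 999, 941, 1215 and 1053 in Tuft-3 cells. No Tuft-2 value for Trpm5 overlapped with either other subtype, at -1.05 ± 0.07 against Tuft-3 and 0.99 ± 0.22 against Tuft-1.

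At a fixed depth of 2000 UMIs per cell, Dclk1 was expected in 92.3 ± 2.10% of Tuft-2 cells (SD, n = 4), Trpm5 in 60.6 ± 1.69% and Pou2f3 in 36.03 ± 1.73%. Enteroendocrine cells, which should lack these genes, gave 1.66 ± 0.927%, 0.529 ± 0.566% and 0.242 ± 0.282% at the same depth. The unthinned medians were 19939 UMIs in Tuft-2 and 12496 in enteroendocrine cells. Without thinning, 100.0% of Tuft-2 cells held Dclk1, 97.3% Trpm5 and 93.4% Pou2f3. The share of cells with Trpm5 was 35.7 ± 1.58% in Tuft-1 (n = 2) and 85.2 ± 2.94% in Tuft-3 cells.

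**Figure D1:**
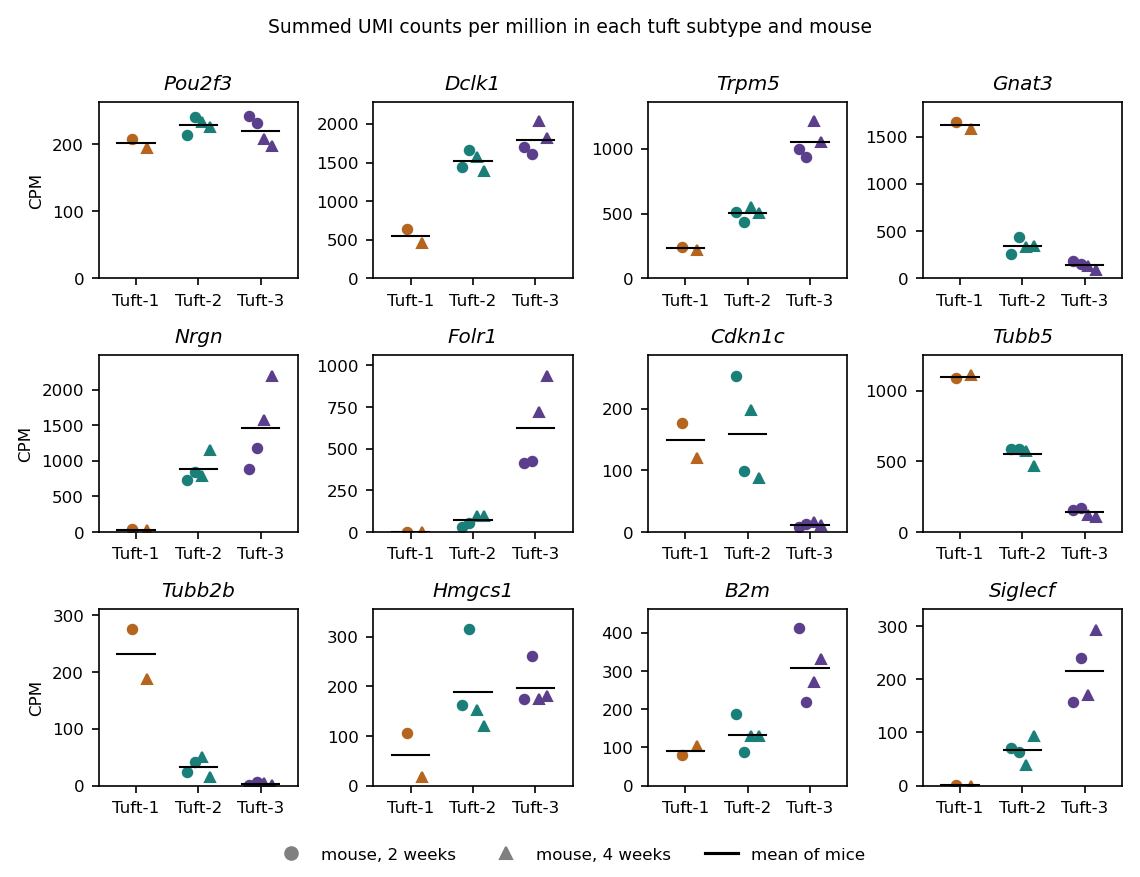
Each panel plots 1 gene in CPM (y axis, from 0) in the 3 tuft subtypes (x axis). Circles are 2-week mice, triangles 4-week mice, and the bar is the mean over mice (2 mice for Tuft-1, 4 for the others). Trpm5, Nrgn and Siglecf lie higher, and Gnat3, Tubb5 and Tubb2b lower, from Tuft-1 over Tuft-2 to Tuft-3, while Pou2f3 is level.

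Among 16 tuft transcription factors in the list, 11 could be compared and none differed at least 2-fold in every mouse from Tuft-3. Here and below a gene is counted as higher or lower when its ratio was at least 2-fold in each mouse compared and its mean was at least 50 CPM in the higher subtype. Over all 3347 genes compared with Tuft-3, 6 were higher (0.179%) and 30 lower (0.896%) in Tuft-2. Over all 3317 genes compared with Tuft-1, 161 were higher (4.85%) and 51 lower (1.54%). The Tuft-3 counts ask for the fold in 4 mice and the Tuft-1 counts in 2, so they are not like for like. In the 2 mice used for Tuft-1, 16 of 3291 genes were higher and 52 lower in Tuft-2 than in Tuft-3. The 1 transcription factor past the fold against Tuft-1 was Hmx2, a homeobox gene of tuft cells, at 330.4, 335, 292 and 418 CPM in Tuft-2 cells, 113 and 123 in Tuft-1 cells and 369, 348, 333 and 404 in Tuft-3 cells. Its paralog Hmx3 was not (263, 300.4, 310.0 and 372 CPM against 191 and 335). Sox9 (841, 879, 722 and 815 CPM) and Spib (463, 462, 461 and 477 CPM) were the factors of the list with the highest levels in Tuft-2, and both lay within 2-fold of the other subtypes.

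Of the taste-type cascade, Gnat3 and Trpm5 had the mean ratios farthest from 0 against Tuft-3. Gnat3, the gustducin alpha subunit, stood at 255, 434, 336 and 346 CPM in Tuft-2 cells, 1654 and 1585 in Tuft-1 cells and 188, 148, 129 and 86.6 in Tuft-3 cells. It was lower than in Tuft-1 by the fold rule (-2.04 ± 0.18, n = 2) and above Tuft-3 in every mouse (1.28 ± 0.62, n = 4), without reaching 2-fold in 2-week mouse 1. Gng13, the gamma subunit that partners it, stood at 1122, 1250.4, 1244 and 1446 CPM in Tuft-2 cells, 941 and 1032 in Tuft-1 cells and 473, 313, 1347 and 1413 in Tuft-3 cells. In Tuft-2 its 4 values lay close together, whereas those of Tuft-3 separated by time, as taken up below. Trpm5 lay below Tuft-3 in every mouse, as given above, without reaching 2-fold in each. The phospholipase Plcb2 stood at 94.6, 69.7, 90.3 and 71.6 CPM in Tuft-2 cells, 34.9 and 30.7 in Tuft-1 cells and 94.8, 72.7, 71.5 and 58.7 in Tuft-3 cells. The regulator of G protein signalling Rgs13 was the most abundant member, at 3294, 4666, 4234 and 3983 CPM in Tuft-2. None of the 11 members compared was past the fold against Tuft-3 and 1 of 11, Gnat3, against Tuft-1. The list's median log2 ratio was -0.05 against Tuft-3 and 0.60 against Tuft-1, beside -0.02 and 0.09 over all genes.

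Of 8 eicosanoid genes compared with Tuft-3, 3 were above it and 4 below it in every mouse, with a median log2 ratio of 0.01. Over all 3347 genes, 833 were above and 895 below Tuft-3 in every mouse. Alox5ap, which presents arachidonic acid to 5-lipoxygenase, stood at 2982, 2653, 2817 and 3197 CPM in Tuft-2, 1494 and 1088 in Tuft-1 and 3489, 3395, 3114 and 3563 in Tuft-3. Alox5 itself stood at 459.9, 514, 411 and 537 CPM in Tuft-2 cells, 294 and 133 in Tuft-1 cells and 480.3, 634, 413 and 571 in Tuft-3 cells. Ptges3, named as a prostaglandin E synthase, stood at 159, 173, 173 and 182 CPM in Tuft-2 cells, 225 and 269 in Tuft-1 cells and 110.1, 133, 120.0 and 131 in Tuft-3 cells. Alox5ap and Alox5 were below Tuft-3 and Ptges3 above it in each mouse. Il25, the cytokine that starts the type 2 circuit, stood at 88.8, 143, 159 and 201 CPM in Tuft-2 cells, 94.4 and 71.7 in Tuft-1 cells and 132, 196, 160.4 and 249 in Tuft-3 cells, and was below Tuft-3 in each mouse (log2 ratio -0.31 ± 0.22, n = 4). None of 8 eicosanoid genes was past the fold against either subtype, although the list's median was 0.60 against Tuft-1. Nrgn, a calmodulin-binding protein best known from neurons, had the largest mean log2 ratio to Tuft-1 among the 161 genes higher in Tuft-2, 4.68 ± 0.66 (n = 2), at 738, 846, 782 and 1158 CPM in Tuft-2 cells, 36.2 and 23.05 in Tuft-1 cells and 887, 1187, 1576 and 2195 in Tuft-3 cells.

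Signalling kinases and adaptors, many of them shared with blood cells, separated Tuft-2 from Tuft-1. Of 17 compared, 8 were higher in Tuft-2 than in Tuft-1 (among them Inpp5d, Ly6g6f, Matk, Ptpn18, Ptpn6, Rac2 and Sh2d6) and none lower, with a median of 1.20. Of 18 compared with Tuft-3, none was past the fold, with a median of -0.27. Sh2d6, an SH2-domain adaptor, stood at 1028, 1017, 933 and 960.5 CPM in Tuft-2 cells, 301 and 120.4 in Tuft-1 cells and 1153, 1041, 981 and 1132 in Tuft-3 cells. The small GTPase Rac2 stood at 310.0, 210.4, 158 and 222 CPM in Tuft-2 cells, 27.3 and 0 in Tuft-1 cells and 375, 496, 308 and 387 in Tuft-3 cells. Sh2d6 lay slightly below Tuft-3 in every mouse (log2 ratio -0.13 ± 0.09, n = 4), and Rac2 further below it (-0.79 ± 0.39).

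Among 21 structural and surface genes compared with Tuft-3, 1 was higher (Tubb5) and 4 lower in Tuft-2. The 4 were Cdhr2 and Cdhr5, protocadherins that link the tips of microvilli, and Siglecf and Cd300lf, receptors otherwise known from myeloid cells. Cdhr2 stood at 157, 132, 123 and 137 CPM in Tuft-2 cells, 19.1 and 7.68 in Tuft-1 cells and 408, 441, 464 and 479 in Tuft-3 cells. Siglecf stood at 71.3, 63.9, 38.1 and 93.4 CPM in Tuft-2 cells, 1.64 and 0 in Tuft-1 cells and 158, 239, 171 and 294 in Tuft-3 cells. For both genes the 3 subtypes did not overlap. Of the actin-bundling proteins, Vil1 stood at 240.1, 294, 240.4 and 252 CPM in Tuft-2 and 226, 318, 226 and 250.3 in Tuft-3, and Avil at 1389.9, 1444, 1205 and 1297 and 1404, 1566, 1339.7 and 1485. Espn stood at 963, 793, 845 and 820.0 CPM in Tuft-2 and 1090.5, 1113, 1123 and 1041 in Tuft-3. Avil and Espn were below Tuft-3 in every mouse, within 2-fold, and the mice differed in direction for Vil1. Krt18 and Krt8 took the most UMIs of the list, and Krt18 stood at 8809, 11510.0, 8523 and 10729 CPM in Tuft-2 against 7182, 7356, 5447 and 7228 in Tuft-3. Against Tuft-1, 7 of 19 structural genes were higher and none lower.

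The 6 genes higher in Tuft-2 than in Tuft-3 were Cdkn1c, Tubb5, Tmsb10, Anxa10, Prdx1 and Mt1. Cdkn1c, a cyclin-dependent kinase inhibitor, differed most, at 253, 99.2, 198 and 87.7 CPM in Tuft-2 cells, 177 and 120.4 in Tuft-1 cells and 7.65, 12.3, 15.5 and 12.04 in Tuft-3 cells (log2 ratio 2.84 ± 0.80, n = 4). Its 2 highest Tuft-2 values were those of the mice in which single cells were rich in Ghrl, the ghrelin gene, as given below. In 2-week mouse 1 the 1 cell past the limits above held 114 of 174 Cdkn1c UMIs. Without the 6 cells Cdkn1c stood at 92.9, 99.6, 139 and 87.7 CPM in Tuft-2, and the log2 ratio was 2.41 without such cells in Tuft-3 as well. Enteroendocrine cells held Cdkn1c more often, in 59.2 ± 5.18% of cells at 2000 UMIs against 17.5 ± 2.74% of Tuft-2 cells (SD, n = 4). The enteroendocrine core list summed to 456, 182, 369 and 165 CPM in Tuft-2 and to 242, 166, 224 and 165 CPM without the 6 cells, beside 291, 372, 503 and 345 CPM in Tuft-3. All Tuft-2 values of Cdkn1c lay above those of Tuft-3 with and without those cells. Of the other 5 genes, Prdx1 moved most in proportion to its level without the 6 cells, from 139.7 to 116 CPM in 2-week mouse 1. Tmsb10, an actin-monomer-binding peptide, stood at 1778, 2469, 2147 and 1686 CPM in Tuft-2 against 652, 794, 616 and 323 in Tuft-3. Anxa10, an annexin expressed in gastric epithelium, stood at 189, 143, 161 and 209.7 CPM in Tuft-2 cells, 120.1 and 97.3 in Tuft-1 cells and 32.1, 38.1, 27.4 and 84.7 in Tuft-3 cells. Anxa10 and Mt1 also had a mean ratio to Tuft-1 above 0 (0.63 and 0.09), without being past the fold there, and the other 4 lay below Tuft-1. Leaving out 2-week mouse 1, where Tuft-2 and Tuft-3 had 33 and 35 cells, gave 11 genes in place of 6. All 6 stayed among the 11, and a fold asked of every mouse is easier to pass with fewer mice.

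The 30 genes lower in Tuft-2 than in Tuft-3 were led by Bglap3, Pate4 and Folr1. With cells thinned to 2000 UMIs, 14 of these 30 and 4 of the 6 higher genes were past the fold again, among 23 lower and 7 higher in all. Bglap3, of the osteocalcin gene cluster, stood at 14.6, 36.4, 34.8 and 34.96 CPM in Tuft-2 cells, 6.25 and 2.56 in Tuft-1 cells and 409.9, 1474, 1448 and 933 in Tuft-3 cells. As Bglap3 has near-identical neighbours, its counts are uncertain between them. Folr1, the folate receptor, stood at 29.1, 53.3, 97.9 and 99.1 CPM in Tuft-2 cells, 0.658 and 0 in Tuft-1 cells and 414, 428, 723 and 937 in Tuft-3 cells, with a ratio of -3.03 ± 0.32 to Tuft-3 (n = 4). Pate4 stood at 114, 29.7, 131 and 119.8 CPM in Tuft-2 and 1201, 661, 1441 and 1322 in Tuft-3, and had no UMI in the Tuft-1 cells of either mouse. Sct, which encodes the hormone secretin, was the only hormone past the fold, at 50.9, 60.1, 41.3 and 55.01 CPM in Tuft-2, 2.63 and 0 in Tuft-1 and 128, 193, 198 and 251 in Tuft-3. Other leading genes were Agt, Fcna, Dio1, Fam221a, 2810468N07Rik, Muc13, Lect2 and Cdhr5, with mean log2 ratios from -1.85 (2810468N07Rik) to -2.74 (Fcna).

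Against Tuft-1, the genes lower in Tuft-2 were led by Ldhb, Stmn1, Mdk and Tubb2b. Ldhb, the heart-type lactate dehydrogenase subunit, stood at 14.6, 14.8, 6.53 and 18.3 CPM in Tuft-2 cells, 209 and 266 in Tuft-1 cells and 1.53, 1.61, 1.24 and 1.13 in Tuft-3 cells. Stmn1, a microtubule-destabilising protein of dividing and immature cells, stood at 71.3, 61.9, 75.1 and 46.4 CPM in Tuft-2 cells, 504 and 589 in Tuft-1 cells and 50.5, 28.2, 21.8 and 21.8 in Tuft-3 cells. Sox4, a transcription factor of progenitors, stood at 390.0, 384, 451 and 303 CPM in Tuft-2 cells, 1984 and 1181 in Tuft-1 cells and 321, 297, 237 and 176 in Tuft-3 cells. In each case the step between Tuft-1 and Tuft-2 was larger than the step between Tuft-2 and Tuft-3. Tead2, Cib2, Gm49708, Gnat3, Fabp5, Pigr and Mef2b completed the leading 12. The genes higher in Tuft-2 than in Tuft-1 were led by Nrgn, Tesc, Calml4, Acot7, Ms4a8a and Serpinb1a. The calmodulin-like Calml4 stood at 901, 647, 547 and 728 CPM in Tuft-2 cells, 66.1 and 40.98 in Tuft-1 cells and 1358, 1306, 884 and 946 in Tuft-3 cells. Siglecf, Folr1, Rac2, Sct, Krt23 and Ifi27l2b came next. Counts against Tuft-1 rest on 2 mice, and with only 4-week mouse 2 (26 Tuft-1 cells) they were 332 higher and 124 lower. With only 2-week mouse 2 they were 172 higher and 76 lower. A fold asked of a single mouse is easier to pass than a fold asked of both, so these counts are not like for like.

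No gene was past the fold against both other subtypes in the same direction, so Tuft-2 had neither a highest nor a lowest gene by this rule. Its profile was placed between the others by taking the 500 genes at least 2-fold apart between Tuft-1 and Tuft-3 in both mice. For 443 of these (88.6%) the Tuft-2 level lay between the other 2 in both mice. This held for 322 of 363 genes higher in Tuft-3 and for 121 of 137 genes higher in Tuft-1. On the log2 scale the median Tuft-2 level lay 0.67 of the way from Tuft-1 to Tuft-3, with 398 genes nearer Tuft-3 and 102 nearer Tuft-1. In 6 genes Tuft-2 lay beyond Tuft-3 in both mice, in 0 beyond Tuft-1, and in 51 the mice differed.

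The same question asked of the other subtypes gave smaller shares. For the 212 genes at least 2-fold apart between Tuft-1 and Tuft-2, Tuft-3 lay between in 18 (8.49%). For the 68 genes apart between Tuft-2 and Tuft-3, Tuft-1 lay between in 8 (11.8%). Over all 3503 genes compared, whether apart or not, Tuft-2 lay between Tuft-1 and Tuft-3 in both mice in 48.2%. The labels come from clusters of these same cells, so the order describes the deposited labels. After thinning every cell to 2000 UMIs the share between was 78.5% of 548 genes and the median position 0.68.

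**Figure D2:**
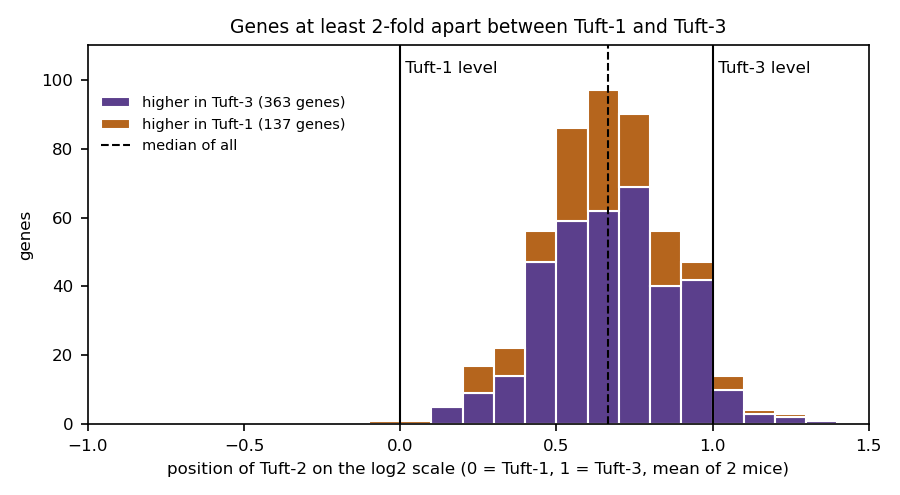
The histogram counts genes (y axis) by where Tuft-2 lies on the log2 scale between Tuft-1, set to 0, and Tuft-3, set to 1 (x axis, mean of the 2 mice with Tuft-1). Colours separate the 363 genes higher in Tuft-3 from the 137 higher in Tuft-1, and the dashed line is the median of 0.67. Most genes lie between both vertical lines and nearer to Tuft-3.

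Single cells were placed by the genes past the fold against Tuft-1 or Tuft-3, after thinning each cell to 2000 UMIs. The 51 genes lower in Tuft-2 than in Tuft-1 gave a median of 8, 10, 10 and 8 UMIs per Tuft-2 cell. Tuft-1 cells held 31 and 35 and Tuft-3 cells 6, 7, 5 and 5. The 30 genes lower in Tuft-2 than in Tuft-3 gave a median of 4, 2, 3 and 3 UMIs per Tuft-2 cell against 10, 12, 16 and 14 in Tuft-3 and 0 and 1 in Tuft-1. No Tuft-2 cell of 2-week mouse 2 or 4-week mouse 2 reached the Tuft-1 median on the first set, while 24 of 269 and 1 of 99 reached the Tuft-1 10th percentile. On the second set 1 of 33 cells of 2-week mouse 1 reached the Tuft-3 median and none of the 269, 56 and 99 cells of the other mice did. The Tuft-3 10th percentile was reached by 14 of 33, 23 of 269, 4 of 56 and 4 of 99 cells, so the subtypes overlapped at their edges. At the Tuft-3 edge the overlap was largest in 2-week mouse 1, which had 35 Tuft-3 cells and too few Tuft-1 cells for the other edge. The genes were chosen from these cells, so these medians restate the groups at the level of cells.

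**Figure D3:**
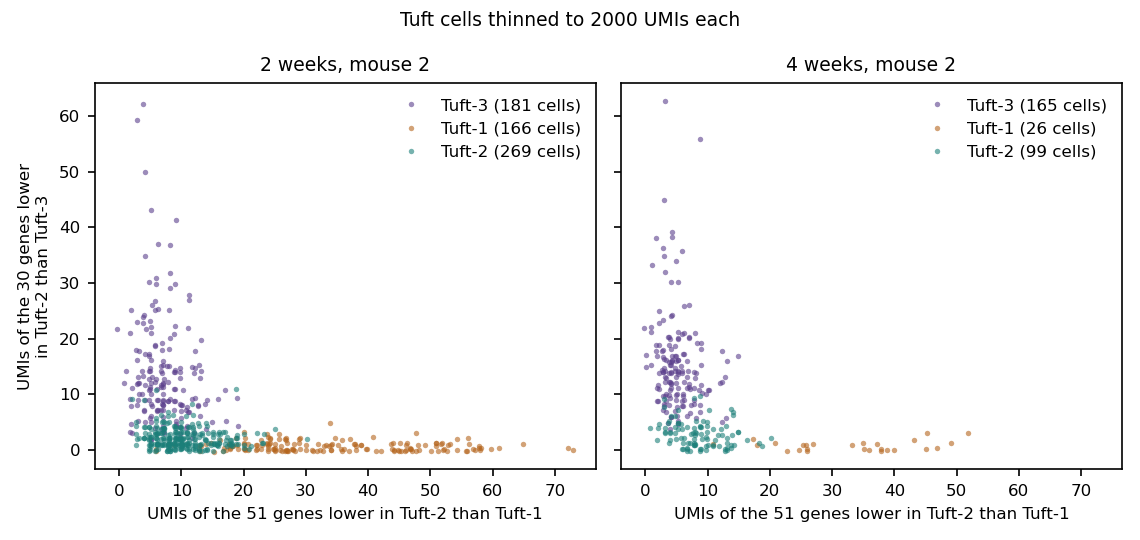
Each point is a cell thinned to 2000 UMIs, in the 2 mice with enough Tuft-1 cells. The x axis counts UMIs of the 51 genes lower in Tuft-2 than Tuft-1 and the y axis UMIs of the 30 genes lower in Tuft-2 than Tuft-3, with points spread by up to 0.3 UMIs to show overlaps. Tuft-2 cells sit at the corner where both counts are low.

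A second deposited clustering, of all EYFP+ cells, put 434 of the 457 Tuft-2 cells in its cluster 7 with Tuft-1 and 23 in its cluster 10, which held 452 of 494 Tuft-3 cells. The 23 cells came from all mice (4, 8, 4 and 7), and the 434 from the same mice in other proportions (29, 261, 52 and 92). Mouse and cluster are therefore mixed in pooled values. The second clustering was also one of these same cells, so the values describe its clusters. Pooled over mice, the 23 cells held less Gnat3 (173 against 404 CPM) and more Trpm5 (649.8 against 460.5 CPM), Folr1 (238 against 55.9 CPM) and Nrgn (1441 against 863 CPM) than the 434. Their Folr1 and Bglap3 levels stayed below the 638 and 1222 CPM of Tuft-3 (238 and 44.8 CPM). Without them the count of genes higher than Tuft-3 was 6 again and that of genes lower was 32.

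The list of tubulins was made after the values were seen. All 7 tubulins compared with Tuft-3 were higher in Tuft-2 in every mouse, with a median log2 ratio of 0.89, and 1 of them, Tubb5, was past the fold. Over all genes, 833 of 3347 were higher in every mouse. Of 8 compared with Tuft-1, 5 were higher and 2 lower in both mice, with a median of 0.27, beside 1615 and 1165 of 3317 over all genes. The list thus had no single order over the 3 subtypes. Tubb5 stood at 587, 592, 571 and 471 CPM in Tuft-2 cells, 1091 and 1112 in Tuft-1 cells and 154, 172, 123 and 109.9 in Tuft-3 cells. Tubb2b, a beta-tubulin of immature neurons, stood at 23.3, 41.8, 50.04 and 14.3 CPM in Tuft-2 cells, 275 and 187 in Tuft-1 cells and 1.53, 6.44, 3.73 and 1.51 in Tuft-3 cells, so both were lower at each step from Tuft-1 to Tuft-3. Tubb4b, a beta-tubulin abundant in cilia, went the other way from Tuft-1 and was highest in Tuft-2 in every mouse, at 1873, 1689, 1594 and 1886 CPM in Tuft-2 cells, 554 and 625 in Tuft-1 cells and 1084, 817, 824 and 943 in Tuft-3 cells. Tuba1a, Tuba1b, Tuba4a and Tubb2a were also above both other subtypes in both mice with Tuft-1, each within 2-fold of Tuft-1 on average. Tubb4b was past the fold against Tuft-1 (1.58 ± 0.01, n = 2) but not against Tuft-3 (0.94 ± 0.11, n = 4).

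Genes of cholesterol synthesis, also listed after the values were seen, were compared in the same way. Of 12 compared with Tuft-1, 9 were past the fold and all 12 higher in both mice, with a median of 1.62. Over all genes, 1615 of 3317 were higher than Tuft-1 in both mice. Of 13 compared with Tuft-3 none was past the fold, with a median of -0.25. Hmgcs1, which makes HMG-CoA, stood at 163, 316, 153 and 119 CPM in Tuft-2 cells, 105 and 17.9 in Tuft-1 cells and 174, 261, 175 and 179.9 in Tuft-3 cells. Fdps, which makes farnesyl diphosphate, stood at 309, 446, 375 and 439 CPM in Tuft-2 cells, 100.0 and 69.1 in Tuft-1 cells and 268, 367, 397 and 555 in Tuft-3 cells. Idi1, which supplies it with isoprene units, stood at 116, 121, 91.4 and 115 CPM in Tuft-2 cells, 32.6 and 0 in Tuft-1 cells and 90.2, 113, 119 and 119 in Tuft-3 cells. All these values in Tuft-2 lay above those of Tuft-1 in the same mouse.

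Immediate early genes, which also answer to tissue digestion, had a summed level between those of the other subtypes in each mouse compared. It was 3777, 4381, 4306 and 4278 CPM in Tuft-2, 7106 and 6072 in Tuft-1 and 3025, 3273, 2935 and 3706 in Tuft-3. Fos stood at 339, 353, 501 and 306 CPM in Tuft-2 cells, 803 and 781 in Tuft-1 cells and 176, 229.8, 95.1 and 171 in Tuft-3 cells. Of 16 compared with Tuft-1, 4 were lower (Atf3, Dusp1, Fos and Jun) and 1 higher (Klf4), and none of 13 was past the fold against Tuft-3. In both mice 10 of the 16 were below and 3 above Tuft-1, beside 1165 and 1615 of 3317 over all genes. In every mouse 7 of the 13 were above and 2 below Tuft-3, beside 833 and 895 of 3347. S phase genes summed to 151 to 206 CPM in Tuft-2, and none reached 50 CPM for the comparison with Tuft-3. The G2 and M phase list summed to 1978, 1851, 1736 and 2037 CPM in Tuft-2, most of it Tubb4b, which that list holds too. Its other gene compared, the chromatin protein Hmgb2, stood at 59.7, 109, 100.1 and 104 CPM in Tuft-2 cells, 149 and 164 in Tuft-1 cells and 64.2, 83.2, 78.3 and 89.6 in Tuft-3 cells.

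Most antigen presentation and interferon genes compared were lower in Tuft-2 than in Tuft-3. Of 15 compared with Tuft-3, 11 were lower in every mouse, beside 895 of 3347 over all genes, and 2, B2m and H2-T23, were past the fold, with a median of -0.56. B2m, the invariant light chain of MHC class I, stood at 186, 86.8, 129 and 129.5 CPM in Tuft-2 cells, 81.3 and 102 in Tuft-1 cells and 413, 220.1, 270.4 and 330.5 in Tuft-3 cells. H2-D1, an MHC class I heavy chain, stood at 1656, 734, 1527 and 1904 CPM in Tuft-2 cells, 344 and 878 in Tuft-1 cells and 2368, 1314, 1889 and 2641 in Tuft-3 cells. The summed list stood at 4693, 2176, 3821 and 4295 CPM in Tuft-2, lowest in 2-week mouse 2. Against Tuft-1, 4 of 8 were higher (H2-D1, Ifi27, Irf7 and Ly6e). Macrophage markers summed to 7.28, 70.2, 20.7 and 28.7 CPM in Tuft-2 and to 378, 137, 21.8 and 32.4 in Tuft-3, and their part in the difference was not tested. In 2-week mouse 2 a single Tuft-2 cell held 110 of 149 Lyz2 UMIs and 44 of 59 C1qa UMIs.

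Lists of other epithelial lineages were set against cells of the same libraries that should lack them. The ductal list summed to 1908, 1887, 1714 and 1708 CPM and the gastric pit list to 652, 549, 631 and 705 CPM in Tuft-2. The reference was EYFP-free immune cells, taken as cells without a type, without an EYFP UMI and with at least 5 T or B cell marker UMIs (276, 316, 395 and 260 cells). They are not lymphocytes alone, since the macrophage genes Lyz2 and C1qa stood at 1081, 1653, 1152 and 1059.6 and at 1078, 488, 349 and 562 CPM in them. In these cells the 2 lists summed to 226, 357, 609 and 235 and to 78.7, 67.2, 57.9 and 80.6 CPM. Acinar enzymes took 17627, 4979.8, 8757 and 9147 CPM in Tuft-2 and more, 36701, 22680.0, 23740.0 and 37706 CPM, in the EYFP-free immune cells, whose median depth was 2986 to 4061 UMIs. In UMIs per cell the EYFP-free immune cells held 191, 129, 132 and 148 and Tuft-2 cells 367, 103, 144 and 161. Whether Tuft-2 cells make enzymes cannot be read from these counts.

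Most UMIs of the hormones Ghrl and Sst in Tuft-2 came from a few cells. Ghrl, which encodes ghrelin, stood at 3011, 39.4, 3707 and 32.1 CPM. In 2-week mouse 1 a single cell held 2020 of 2069 Ghrl UMIs, and in 4-week mouse 1 a single cell held 3232 of 3408 and another 143. Without the 6 cells named above Ghrl stood at 75.9, 9.85, 37.9 and 32.1 CPM. Sst, somatostatin, stood at 10.2, 53.6, 1.09 and 6.30 CPM, and 250 of 298 UMIs in 2-week mouse 2 came from 1 cell. Endothelial markers came mainly from 1 cell of 4-week mouse 1 (21 of 21 Plvap and 6 of 6 Pecam1 UMIs).

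The share of Tuft-2 among tuft cells with a subtype was lower in both mice injured for longer. It was 44.6% (33 of 74 cells, 95% exact binomial interval 33.0 to 56.6%) and 43.7% (269 of 616, 39.7 to 47.7%) at 2 weeks, and 30.9% (56 of 181, 24.3 to 38.2%) and 34.1% (99 of 290, 28.7 to 39.9%) at 4 weeks. The intervals cover counting error only. Both 4-week mice lay below both 2-week mice, and the 2-sided exact permutation test over mice gave p = 0.33, the smallest p that 2 against 2 mice allow. Of Tuft-2 and Tuft-3 cells together, Tuft-2 made 48.5, 59.8, 33.1 and 37.5%. As a share of all typed cells Tuft-2 made 1.11, 7.49, 1.99 and 2.49%, with overlapping times and the highest share in 2-week mouse 2 (exact p = 1).

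No gene passed the test between 2 and 4 weeks within Tuft-2. Of 8645 genes tested with edgeR's quasi-likelihood test, 0 (0.0%) had a Benjamini-Hochberg adjusted p below 0.05, and 338 had an unadjusted p below 0.05. DESeq2 called 1 gene of 16400, Gm10320, which had UMIs in 2-week mouse 2 alone (0, 224, 0 and 0 CPM). The count moved with single mice: it was 124 without 2-week mouse 1, 25 without 2-week mouse 2, 6 without 4-week mouse 1 and 1 without 4-week mouse 2, where the lone mouse of a time is assumed to vary like the pair. The mice also differed in sex-linked genes, read after the values were seen and with no sex given in the labels. Xist, the RNA of the inactive X chromosome, stood at 1016, 1148, 1011 and 0 CPM in Tuft-2. The Y-linked Ddx3y stood at 0, 0, 0 and 23.5 CPM. So 4-week mouse 2 stood apart from the other 3, and 5 of the 6 calls made without 4-week mouse 1 were Xist, Tsix, Ddx3y, Uty and Eif2s3y. The part of sex in other differences between times was not tested. By list, 0 of 15 tuft transcription factors, 1 of 12 taste-type genes and 1 of 12 eicosanoid genes had an unadjusted p below 0.05, with median log2 changes of 0.02, 0.03 and 0.00, beside 0.00 over all genes. No list held a gene that passed. Of SPEM and mucous neck genes, which mark a gastric-type metaplasia, 4 of 15 had such a p with a higher and 2 with a lower level at 4 weeks (median 0.12). Of 3 Reg genes 2 had such a p and all 3 were lower (median -1.19). Of 26 acinar enzymes 20 had an estimate below 0 (median -0.28), none with such a p, and of 18 tuft kinases 14 (median -0.12), 1 higher and 1 lower with such a p. An estimate below 0 was also found for 19 of 24 cholesterol synthesis genes (median -0.16) and 16 of 23 structural genes (median -0.07). Over all 8645 genes, 4293 had an estimate below 0, and 150 had such a p with a higher and 188 with a lower level. The EYFP-free immune cells of the same libraries carried 1344, 1612, 2786 and 4115 CPM of the SPEM list and 4613, 4600.4, 2678 and 3535 CPM of the Reg list. In UMIs per cell they held 6.99, 9.19, 15.5 and 16.1 of the SPEM list, against 35.2, 34.9, 33.4 and 35.7 in Tuft-2. Of the Reg list they held 24.0, 26.2, 14.9 and 13.8 UMIs per cell, against 29.3, 13.5, 10.1 and 12.5 in Tuft-2. Free RNA was not tested as a source. Dclk1, Trpm5, Pou2f3 and Gnat3 each overlapped between times.

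The genes nearest to the threshold were named by rank and did not pass. Tff2, a trefoil peptide of mucous neck cells, stood at 182, 155, 309 and 331 CPM, with a change of log2 0.94, SE 0.14, edgeR adjusted p = 0.0979. Gkn3, a gastrokine, stood at 132, 152, 238 and 291 CPM (log2 0.89, SE 0.15, edgeR adjusted p = 0.0979). Over alternatives the adjusted p of Tff2 ran from 5.29e-06 to 0.999, and without the 6 cells named above it was 0.0333. EYFP-free immune cells of the same libraries were also higher at 4 weeks, with 364, 465, 960.4 and 1759.5 CPM of Tff2 and 261, 429, 662 and 1199 CPM of Gkn3. Reg2, a regenerating-family lectin (36.4, 65.5, 9.79 and 14.9 CPM, log2 -2.10, SE 0.32, edgeR adjusted p = 0.0979), went the other way, and the EYFP-free immune cells held 137, 339, 70.2 and 81.6 CPM. The immune cells were shallower, at a median depth of 2986 to 4061 UMIs, so their CPM does not compare amounts per cell. The part of free RNA in these 3 genes was not tested. Folr1 and Cldn18 had next to no UMIs in the EYFP-free immune cells (0.696, 0.555, 0.911 and 0.983 and 0, 0, 0.456 and 0.983 CPM). In Tuft-2 Folr1 stood at 29.1, 53.3, 97.9 and 99.1 CPM (log2 1.10, SE 0.22, edgeR adjusted p = 0.246), and Cldn18, a claudin of gastric epithelium, at 43.7, 22.3, 89.2 and 73.4 CPM (log2 1.54, SE 0.28, edgeR adjusted p = 0.262).

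The remaining genes named this way were Crim1, higher at 4 weeks, and Rbp4, Serpini1, Gm42743 and mt-Nd1, lower at 4 weeks. Rbp4, the retinol carrier, stood at 16.01, 22.3, 2.18 and 4.01 CPM (log2 -2.59, SE 0.43, edgeR adjusted p = 0.0979). Serpini1, neuroserpin, stood at 68.4, 58.9, 32.6 and 22.3 CPM (log2 -1.23, SE 0.23, edgeR adjusted p = 0.159). The mitochondrial gene mt-Nd1 stood at 1349, 1435, 830.0 and 957 CPM (log2 -0.64, SE 0.12, edgeR adjusted p = 0.159), beside a median mitochondrial share of 2.74, 2.46, 2.03 and 2.31% of UMIs per Tuft-2 cell. In the EYFP-free immune cells mt-Nd1 stood at 1095, 1369.5, 787 and 847 CPM, also lower at 4 weeks in both mice. Each gene named by rank for time in Tuft-2 moved in the same direction in Tuft-3, without overlap between times. For example, Tff2 stood at 102, 166, 376 and 540 CPM in Tuft-3, and Reg2 at 47.4, 63.3, 15.5 and 19.2 CPM. These shifts were thus not seen in Tuft-2 alone.

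The difference between 2 and 4 weeks was not the same in Tuft-2 and Tuft-3 for some genes. An edgeR model with mouse as a block, fitted on Tuft-2 and Tuft-3 of the same 4 mice, called 23 of 9787 genes (0.235%) at an adjusted p below 0.05. The change in Tuft-2 minus that in Tuft-3 was positive in 13 and negative in 10. Gng13 was the 1 taste-cascade gene among them, with 1122, 1250.4, 1244 and 1446 CPM in Tuft-2 and 473, 313, 1347 and 1413 in Tuft-3, a difference of log2 -1.69, SE 0.20, edgeR adjusted p = 0.0161. Its 2-week and 4-week values in Tuft-2 lay close together, whereas both 4-week values of Tuft-3 lay far above its 2-week values and at the level of Tuft-2. The change was 0.18 in Tuft-2 and 1.82 in Tuft-3 on the log2 scale. Gng13 was also called by DESeq2 and in each of the 4 fits that leave out a mouse. It was not called without the 5% of cells with most UMIs (adjusted p = 0.594), without the 23 cells of the second clustering's cluster 10 (0.232) or without the block (0.114).

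Other genes had a higher change in Tuft-3 than in Tuft-2. Nrgn stood at 738, 846, 782 and 1158 CPM in Tuft-2 and 887, 1187, 1576 and 2195 in Tuft-3 (log2 -0.56, SE 0.12, edgeR adjusted p = 0.0373). Pcdh20, a protocadherin, stood at 23.3, 10.4, 16.3 and 25.2 CPM in Tuft-2 and 29.1, 12.6, 125 and 115 in Tuft-3 (log2 -2.13, SE 0.33, edgeR adjusted p = 0.00138). Rab3b, a vesicle GTPase, stood at 87.3, 66.95, 42.4 and 73.9 CPM in Tuft-2 and 109, 51.5, 92.00 and 148 in Tuft-3 (log2 -1.20, SE 0.21, edgeR adjusted p = 0.00838). For Nrgn and Pcdh20 the 4-week values of Tuft-3 lay above all values of Tuft-2. Snhg18, Tm4sf4, Tmem245, Cela2a, Hamp2 and Sst had the same sign. For Sst, 250 of 298 Tuft-2 UMIs of 2-week mouse 2 lay in 1 cell, and its adjusted p was 0.581 without the 6 Tuft-2 cells and 7 Tuft-3 cells past the limits on hormone and immune UMIs. Cela2a, an acinar elastase, stood at 1821, 1144, 1048 and 1358 CPM in the EYFP-free immune cells. That was above both subtypes in CPM, but those cells held fewer UMIs each.

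Galnt12, Ifitm3, Tm4sf5, Bst2, Hspb1, Ramp1, Cenpv, Nrtn, Ly6e, Krt7, Smoc2, S100a10 and Crip2 had the opposite sign. Hspb1 stood at 13.1, 38.3, 39.2 and 17.2 CPM in Tuft-2 and 3.06, 37.0, 6.84 and 3.39 in Tuft-3. Ramp1 stood at 17.5, 20.5, 21.8 and 16.6 CPM in Tuft-2 and 26.0, 110, 24.9 and 15.4 in Tuft-3. For both, the Tuft-3 value of 2-week mouse 2 lay far above those of the other mice. Galnt12, a mucin-type glycosyltransferase, stood at 23.3, 18.2, 31.5 and 29.2 CPM in Tuft-2 and 32.1, 42.4, 12.4 and 13.9 in Tuft-3 (log2 2.28, SE 0.34, edgeR adjusted p = 0.00138). Bst2, the interferon-induced protein tetherin, stood at 167, 23.9, 58.7 and 61.9 CPM in Tuft-2 and 414, 52.1, 60.9 and 65.1 in Tuft-3 (log2 1.16, SE 0.20, edgeR adjusted p = 0.00655), with its highest value in 2-week mouse 1 in both subtypes. Ifitm3, another interferon-induced gene, lost its call without the same cells (adjusted p = 0.725), and so did Krt7 (0.0585). That fit called 25 genes, of which 20 were among the 23. Of the 23 calls, 2 (Gng13 and Ifitm3) were called in each of the 4 fits that leave out a mouse. Calls shared with the full fit numbered 23 of 110 without 2-week mouse 1, 8 of 37 without 2-week mouse 2, 17 of 32 without 4-week mouse 1 and 11 of 35 without 4-week mouse 2. DESeq2 called 2 genes, Gng13 and Ifi27l2a, of which the first was shared. Without the block 0 genes were called by edgeR, with 251 at an unadjusted p below 0.05.

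**Figure D4:**
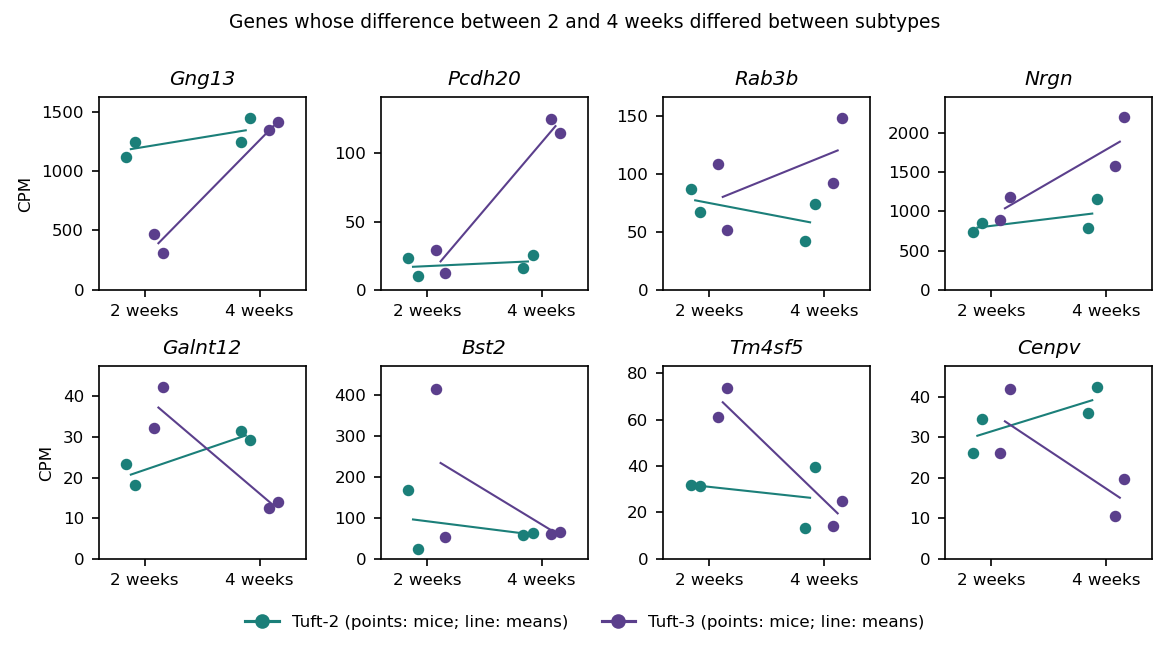
Each panel plots 1 gene in CPM (y axis, from 0) at 2 and 4 weeks of caerulein (x axis). Points are mice, 2 per time and subtype, and lines join the means of Tuft-2 and of Tuft-3. For Gng13 the Tuft-2 mice sit between 1122 and 1446 CPM at both times, while the Tuft-3 mice go from 313 and 473 to 1347 and 1413 CPM.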

How the data were processed

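The authors deposited raw UMI counts, not normalized, for all cells and for tuft and enteroendocrine cells, with cluster and cell type labels. The submitters' processing notes name Cell Ranger 4.0.0, Seurat 3.2.3 and mm10, without roles. How cells were clustered and named is not given in the sources used here. Each cell was assigned to its mouse by the library named with its barcode.

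Counts were summed per mouse and subtype where at least 20 cells were present. CPM used the summed total, with 10 CPM added before log2 ratios. Time within Tuft-2, and its difference from Tuft-3, were tested with edgeR 4.0.16 (quasi-likelihood, robust, TMM, filterByExpr) in R 4.3.3 with Benjamini-Hochberg adjustment at 0.05. The SE given with an edgeR result is the size of its log2 change divided by the square root of its F statistic. It is thus derived from the test and approximate. DESeq2 1.42.0 was an alternative. Mouse was a block between subtypes, since both came from the same animals (correlation across 3106 genes of the difference between the 2 mice of a time, Tuft-2 with Tuft-3, r = 0.59 at 2 weeks and 0.56 at 4 weeks). In simulated counts, 4-fold changes were set in 200 genes drawn from those with a mean above 20 CPM. The fit of time recovered 199 with 9 false calls. The fit of the difference between subtypes recovered 197 with 11 false calls. Mice and subtypes had the same mean for a gene, and all genes the same dispersion. So the simulation cannot speak to smaller changes, to genes at lower levels or to counts that moved with single mice. Detection at 2000 UMIs is the expected share after thinning, and 7 enteroendocrine cells below that depth were left out.

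The members and the 26 gene lists (438 genes, 433 found) were chosen with earlier results of these data known. Subtype genes were named by rank, the first 12 of each set by the smallest ratio in any mouse. Time genes needed 10 CPM on average in Tuft-2 and no overlap between times, and up to 10 per direction that passed were named, or, where fewer than 3 passed, the first 5 per direction by p. For the difference between subtypes, no overlap refers to the ratio of Tuft-2 to Tuft-3 in each mouse. Calls outside that rule are named as calls only. Some genes that the rule names are not reported here. The lists of tubulins and cholesterol synthesis, and the 2 alternatives without certain cells, were chosen after seeing the data. Also tried were other size factors, other filters, fewer cells, thinned cells and leaving out each mouse.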

Additional observations from a re-analysis of the deposited data

Results flagged for a closer look

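The change between 2 and 4 weeks differed between Tuft-2 and Tuft-3 in the edgeR test of that difference for the genes named here, given as the log2 change in Tuft-2 minus that in Tuft-3. It was positive for Galnt12 (2.28), Ifitm3 (1.89), Tm4sf5 (1.69), Bst2 (1.16), Hspb1 (2.30), Ramp1 (2.24), Cenpv (1.57), Nrtn (1.22), Ly6e (0.82) and Krt7 (0.86). It was negative for Snhg18 (-1.17), Sst (-3.73), Pcdh20 (-2.13), Rab3b (-1.20), Cela2a (-0.80), Gng13 (-1.69), Tm4sf4 (-0.68), Tmem245 (-0.75) and Nrgn (-0.56). Sst and Ifitm3 lost their call without the 6 Tuft-2 and 7 Tuft-3 cells that held many hormone, immune or endothelial UMIs, and Krt7 did too. Gng13 was the one called by DESeq2 as well. For Hspb1 and Ramp1 the Tuft-3 level stood apart in 2-week mouse 2 alone (37.0 and 110 CPM), as given above.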

How the results depend on the processing

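The count of genes changing over time in Tuft-2, 0 in the reported fit, was 1 with DESeq2, 62 without a gene filter, 1 without the 5% of cells with most UMIs, 2 with cells thinned to 2000 UMIs and 1 without the tuft cells high in hormone, immune or endothelial genes. It was 1 to 124 with 1 mouse left out. The count of genes whose change differed from Tuft-3, 23 as reported, was 2 with DESeq2, 66 without a gene filter, 3 with thinned cells and 0 without the replicate block, and 32 to 110 with 1 mouse left out. The cause of these shifts was not tested, but thinning also left fewer genes to test (2625 and 4073 against 8645 and 9787).

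Genes at least 2-fold higher than Tuft-3 were 12 in place of 6 with a minimum of 10 CPM, and 6 to 11 with 1 mouse left out. Genes lower than Tuft-1 were 89 with that minimum and 79 with thinned cells in place of 51, and 76 to 124 from a single mouse, while genes higher were 172 to 332 in place of 161. The share of genes between Tuft-1 and Tuft-3 was 86.7% with a minimum of 10 CPM and 78.5% with thinned cells, and 91.9 to 93.8% from a single mouse. Rules that ask for every mouse are easier to pass with fewer mice, so counts and shares with mice left out are not like for like. The median position of Tuft-2 was 0.65 to 0.68 in all alternatives. At 4000 UMIs the share of cells with a UMI was 98.7% for Dclk1, 81.8% for Trpm5, 58.2% for Pou2f3 and 62.1% for Gnat3, and without thinning 100.0, 97.3, 93.4 and 89.98%. The difference in the share of Tuft-2 kept its direction in all 6 alternatives.

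No value of the 71 named gene results changed sign in any of 771 recomputations. The subtype genes were chosen for the same direction in every mouse, so leaving out a mouse or changing the added CPM could not change their sign. The time genes were chosen for no overlap, which also makes a change of sign unlikely. Of 414 recomputed subtype ratios, 39 moved by more than the spread between mice, which leaving out a mouse cannot bring about. Of 357 recomputed time results, 108 changed their side of the threshold. No paired analysis was possible for time within Tuft-2 because each mouse was seen at 1 time only. With 2 mice per time, 2 mice with enough Tuft-1 cells, and as few as 33 Tuft-2 and 26 Tuft-1 cells in a mouse, the precision is limited.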
